A study of Mus musculus with 40 samples.

Results

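The kidney returns filtered glucose to the blood and also makes glucose of its own. In the proximal tubule, sodium-coupled carriers on the luminal membrane, SGLT2 (Slc5a2) in the early part and SGLT1 (Slc5a1) further down, take glucose up from the filtrate. The facilitative carriers GLUT2 (Slc2a2) and GLUT1 (Slc2a1) pass it on across the basolateral membrane, and Slc2a5 (GLUT5) carries fructose. The same cells hold the enzymes that build glucose from lactate, amino acids and glycerol: pyruvate carboxylase (Pcx), phosphoenolpyruvate carboxykinase (Pck1), fructose bisphosphatase (Fbp1) and the catalytic subunit of glucose-6-phosphatase (G6pc). Ketohexokinase (Khk) phosphorylates fructose. These 10 genes, 5 carriers and 5 enzymes, were taken by symbol from the count tables of kidney and aorta. All 10 were found once among the 55382 genes listed for kidney and the 55335 listed for aorta.

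Mice carried either a deletion of the EGF receptor gene Egfr in cells that express the Tek-cre transgene B6.Cg-Tg(Tek-cre)1Ywa (KO, from Egfr flox/flox mice) or the same transgene without loxP sites (WT). The Tie2 promoter of this transgene drives Cre in endothelial cells, and, as general background, also in blood-forming cells. Thus every group carried Cre, and the deletion was not aimed at tubule cells. After 1 week on an equal mixture for the HFD mice, the mice received from 6 weeks of age and for 18 weeks a high fat diet (HFD, 60% of energy from fat) or the standard diet (SFD in the study, SD in the labels, 10%). Kidney and aorta RNA was sequenced as 5 libraries for each of WT SFD, WT HFD, KO SFD and KO HFD, 20 per organ. Per the labels, fat and connective tissue around the aorta had been removed. Sex and time of day of collection were not given. The labels do not say that each library came from a separate mouse, so the p-values below measure the spread between libraries.

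Kidney libraries held 19643033 to 48833447 counts and aorta libraries 17520161 to 36452741. Levels are given as FPM, counts per 1000000 of the TMM-scaled library size. Kidney libraries a1, labelled KO HFD, and a12, labelled WT HFD, had counts that agreed more closely than separate samplings of reads would. Their median chi-square per gene was 0.0269, against 1.62 for the next closest pair. They held 48788716 and 48833447 counts, against a median of 24182781 over the kidney libraries. The aorta libraries R-1, labelled WT SFD, and R-12, labelled KO SFD, were alike in the same way (0.0277 against 1.60). R-1 and R-12 held 36419598 and 36452741 counts, against a median of 19683938 over the aorta libraries. As each pair carries labels of different groups, it was kept, and calls that changed without it are given beside the result. Both libraries of the kidney pair are labelled HFD and both of the aorta pair SFD. The diet comparisons averaged over genotypes therefore counted both members of each pair on the same side. A further 3 kidneys on SFD, a8 and a9 (KO) and a17 (WT), stood apart by high immediate-early genes. Egfr itself did not pass between KO and WT in whole kidney (log2 fold change -0.012 ± 0.12 SE averaged over diets, adjusted p = 0.99) or in whole aorta (0.14 ± 0.10, adjusted p = 0.729). Whole-organ counts do not show the level in endothelial cells alone.

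In kidney the gluconeogenic enzymes and GLUT2 belong to a set of genes known to be read in liver as well. The sequences before the start are shown for 3 of those that passed as higher with HFD averaged over genotypes. They are from RefSeq (GRCm38.p6), 5′ to 3′ on the gene's strand, so that the results below can be tied to a place in the genome. Each run covers the 250 bases before the start, and capitals mark matches on either strand to 1 of 7 motifs: TGACGTCA (the cyclic AMP response element), its half-site ACGTCA, the HNF1 half-site GTTAAT, the HNF4 site CAAAGTCCA, the FOXO or FOXA site GTAAACA, the E-box CACGTG and the TATA box TATAAA. The first contains the second. The RefSeq starts of G6pc and Pck1 lie inside the GENCODE gene models given below.
G6pc, chr11:101367466-101367715, plus strand: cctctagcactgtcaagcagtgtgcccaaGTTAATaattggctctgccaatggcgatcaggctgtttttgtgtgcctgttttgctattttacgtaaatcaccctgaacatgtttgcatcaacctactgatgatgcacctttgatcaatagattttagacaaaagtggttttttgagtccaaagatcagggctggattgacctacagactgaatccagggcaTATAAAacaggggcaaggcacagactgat
Pck1, chr2:173152823-173153072, plus strand: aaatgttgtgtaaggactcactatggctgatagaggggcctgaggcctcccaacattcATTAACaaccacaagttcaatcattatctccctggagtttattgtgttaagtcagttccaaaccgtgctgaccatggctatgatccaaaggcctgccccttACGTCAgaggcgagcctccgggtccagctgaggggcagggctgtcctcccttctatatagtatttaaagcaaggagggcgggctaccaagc
Slc2a2, chr3:28697653-28697902, plus strand: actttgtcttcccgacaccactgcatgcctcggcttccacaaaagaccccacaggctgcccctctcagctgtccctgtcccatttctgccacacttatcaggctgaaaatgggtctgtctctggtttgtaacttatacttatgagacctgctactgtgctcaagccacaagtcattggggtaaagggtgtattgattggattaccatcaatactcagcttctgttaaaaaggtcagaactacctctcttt

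G6pc held 1 HNF1 half-site beginning 221 bases before the start and a TATA box beginning at 29 bases. Pck1 held the HNF1 half-site at 192 bases, in reverse orientation, and the cyclic AMP response half-site at 91 bases. Slc2a2 held none of the 7 words in this window. Of the genes not printed, Khk, which did not pass with diet, also held the HNF1 half-site, at 60 bases. Slc5a1, Pcx, Fbp1, Slc2a1 and Slc2a5 did not hold it. The E-box began 143 bases before the start in Slc5a1, 71 in Khk and 248 in Pcx, counted from its upstream start. Fbp1, Slc2a1 and Slc2a5 held none of the 7 words. Among all 32851 promoter windows of that length, the HNF1 half-site was in 6.43%, the cyclic AMP response half-site in 6.47%, the TATA box in 12.4%, the full cyclic AMP response element in 1.55%, the FOXO or FOXA site in 3.17%, the E-box in 6.02% and the HNF4 site in 0.384%. These matches are descriptions of letters and were not tested against the expression data. The table of promoters matched 9 of the 10 genes, all but Slc5a2.

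With HFD, 7 of the 10 genes were higher in kidney when both genotypes were averaged, and none passed as lower. The 2 that changed most were G6pc, which releases free glucose at the end of gluconeogenesis, with a 2.00-fold higher level, and Slc5a2, the main luminal glucose carrier, with a 1.78-fold higher level. Pck1 (1.45-fold), Slc2a2 (1.42-fold) and Slc5a1 (1.32-fold) followed, and Pcx (1.19-fold) and Fbp1 (1.11-fold) changed little. Of all 15943 genes tested in kidney 16.4% passed the same test, and 7.7% of all genes passed as higher. The median log2 fold change of the 10 genes was 0.32, against -0.0012 for all genes. GLUT1, GLUT5 and Khk did not pass. EGFR genotype was without a detectable effect on any of the 10 genes under either diet.

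**Figure D1:**
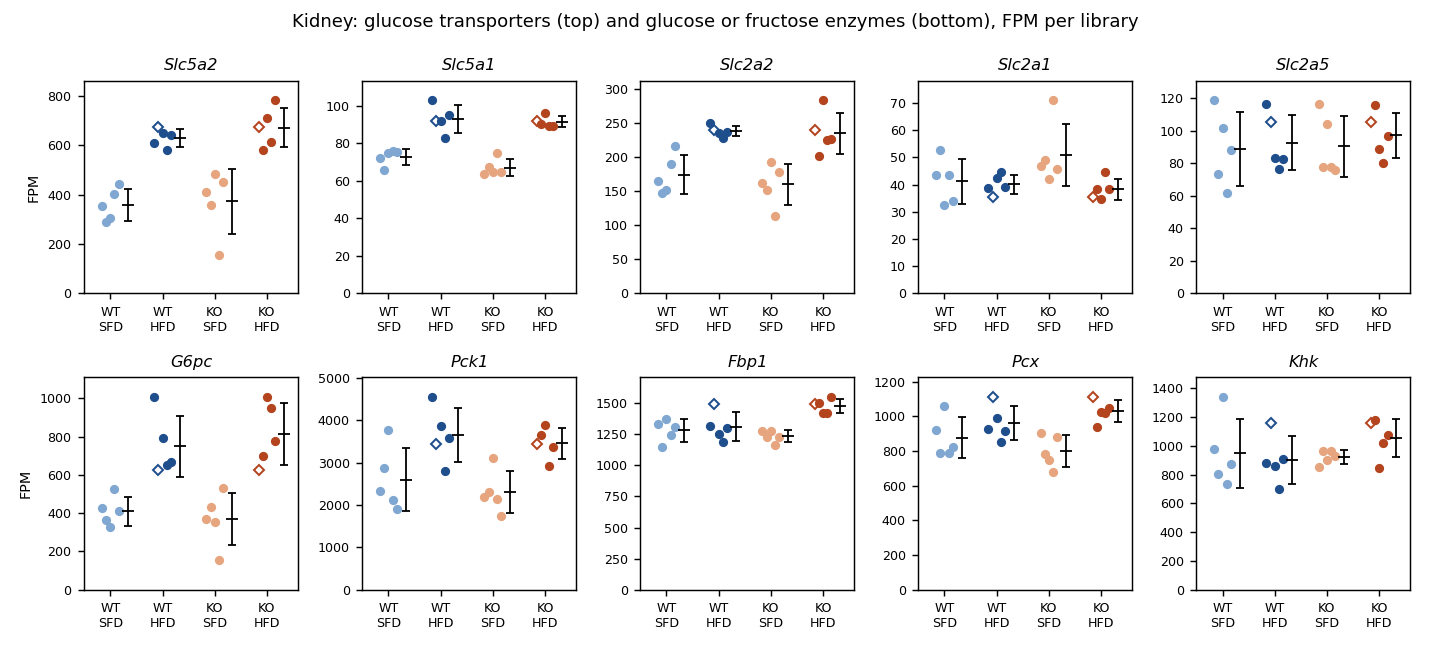
Each panel plots 1 gene, with FPM on the y axis (linear, from 0) and the 4 groups on the x axis. Points are single kidney libraries, open diamonds the near-identical pair a1 and a12, and bars the mean ± SD (n = 5). For Slc5a2, Slc5a1 and G6pc every HFD point lies above every SFD point, whereas Slc2a1, Slc2a5 and Khk overlap between diets.

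Slc5a2 (chromosome 7, 128265657 to 128272430, plus strand, GRCm38) encodes the high-capacity carrier that takes up most of the filtered glucose. The 5 WT SFD kidneys read 354, 288, 306, 403 and 444 FPM and the 5 WT HFD kidneys 609, 675, 651, 581 and 642 FPM. The 5 KO SFD kidneys read 411, 359.5, 486, 156 and 453 FPM and the 5 KO HFD kidneys 673, 579.9, 711, 613 and 783 FPM. All 10 HFD kidneys were above all 10 SFD kidneys, and the lowest SFD value, 156 FPM, was that of a9. The log2 fold change was 0.81 ± 0.20 (SE) in WT (adjusted p = 0.0172) and 0.85 ± 0.20 in KO (adjusted p = 0.0128). In a fit of the KO groups alone the KO value did not pass (adjusted p = 0.089). Without a9 it was 0.65 in KO (adjusted p = 0.0028). The last part of Slc5a2 overlaps BC017158 on the opposite strand. That gene had 445 to 1205 counts in the kidneys, against 3702 to 32061 for Slc5a2, and whether the counting used strand is not stated.

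Slc5a1 (chromosome 5, 33104219 to 33162870, plus strand) encodes the high-affinity carrier that takes up the glucose left in the late proximal tubule. It read 72.02, 65.8, 74.6, 75.8 and 75.6 FPM in WT SFD and 103, 91.99, 91.7, 82.6 and 95.3 FPM in WT HFD. In KO SFD it read 63.7, 67.3, 64.99, 74.8 and 64.6 FPM and in KO HFD 92.1, 90.5, 96.2, 89.4 and 89.3 FPM. Here too all HFD kidneys were above all SFD kidneys. The change was smaller than that of Slc5a2, and its SE was the smallest of the 10 genes in the averaged comparison (0.045). The log2 fold change was 0.35 ± 0.064 in WT (adjusted p = 0.00159) and 0.45 ± 0.064 in KO (adjusted p = 1.5e-04).

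Slc2a2 (chromosome 3, 28697903 to 28731359, plus strand), the basolateral exit carrier of the early proximal tubule, read 165, 148, 152, 189 and 217 FPM in WT SFD and 249, 239.5, 236, 228 and 237 FPM in WT HFD. It read 162, 152, 192, 114 and 179 FPM in KO SFD and 239, 201, 283, 225 and 226 FPM in KO HFD. The diets did not overlap within either genotype, but the lowest KO HFD kidney was below the highest WT SFD kidney. The log2 fold change was 0.45 ± 0.12 in WT (adjusted p = 0.0314) and 0.56 ± 0.12 in KO (adjusted p = 0.00795). Without the near-identical libraries the WT call was lost (log2 fold change 0.45, adjusted p = 0.054), as it was in 6 of 10 fits that left out 1 library (a11, a13, a15, a16, a17 or a18, adjusted p up to 0.0787).

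The remaining carriers did not follow. Slc2a1 (chromosome 4, 119108711 to 119137983, plus strand), found in most cell types, had means of 41.2 ± 8.29 on SFD and 40.1 ± 3.47 on HFD among WT, and 50.9 ± 11.5 on SFD and 38.3 ± 3.91 on HFD among KO libraries, in FPM (± SD, n = 5). Its averaged log2 fold change with HFD was -0.23 ± 0.10 (adjusted p = 0.118), with -0.41 in KO (adjusted p = 0.0819; 0.0478 by DESeq2) and -0.041 in WT. Within KO SFD, a9 read 70.95 FPM while the other 4 libraries read 42.1 to 49.0 FPM. The kidney with the highest GLUT1 level was thus the one with the lowest levels of Slc5a2, Slc2a2 and G6pc. Slc2a5 (chromosome 4, 150119283 to 150144169, plus strand) had means of 88.6 ± 22.5 on SFD and 92.6 ± 17.1 on HFD among WT, and 90.3 ± 18.6 on SFD and 97.1 ± 13.8 on HFD among KO libraries, in FPM and an averaged log2 fold change of 0.085 (95% confidence interval -0.16 to 0.33, adjusted p = 0.682).

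Among the enzymes, G6pc (chromosome 11, 101367561 to 101377903, plus strand), whose promoter is printed above, showed the largest change. It read 426, 365, 325, 525 and 409 FPM in WT SFD and 1008, 627, 791, 649 and 666 FPM in WT HFD. In KO SFD it read 369, 433, 355, 157 and 530.1 FPM and in KO HFD 627, 701, 1005, 949 and 779 FPM. No HFD kidney was as low as the highest SFD kidney, and a9 was again the lowest. The log2 fold change was 0.87 ± 0.23 in WT (adjusted p = 0.0272) and 1.14 ± 0.23 in KO (adjusted p = 0.00438). The WT call was lost in 6 of 10 fits that left out 1 library (a11, a13, a16, a17, a18 or a20, adjusted p up to 0.0842) and with no filter on low counts (adjusted p = 0.0685). The KO call held in all 10 such fits, and without a9 the KO value was 0.95 (adjusted p = 0.00257).

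Pck1 (chromosome 2, 173153048 to 173159273, plus strand), which makes phosphoenolpyruvate from oxaloacetate, read 2325, 2862, 3766, 2123 and 1899 FPM in WT SFD and 4550.5, 3443, 3860.0, 2794 and 3588 FPM in WT HFD. It read 2192, 2308, 3099, 2142 and 1741 FPM in KO SFD and 3426, 3658, 3879.5, 2915 and 3371 FPM in KO HFD. The diets overlapped in both genotypes. The averaged log2 fold change was 0.54 ± 0.12 (adjusted p = 0.00393), with 0.59 in KO (adjusted p = 0.0459) and 0.49 in WT (adjusted p = 0.101). Without the near-identical libraries the KO value of 0.59 no longer passed (adjusted p = 0.0799), and it was lost in 8 of 10 fits that left out 1 library, all but a4 and a8 (adjusted p up to 0.113).

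Pcx (chromosome 19, 4510472 to 4621752, plus strand), which forms oxaloacetate from pyruvate, and Fbp1 (chromosome 13, 62864753 to 62888282, minus strand), which removes a phosphate from fructose 1,6-bisphosphate, changed by little. Pcx had means of 877 ± 116 on SFD and 959.7 ± 98.4 on HFD among WT, and 799 ± 92.6 on SFD and 1029 ± 62.2 on HFD among KO libraries, in FPM (SD, n = 5), with a log2 fold change of 0.36 ± 0.10 in KO (adjusted p = 0.0257) and 0.13 ± 0.10 in WT (adjusted p = 0.494). Fbp1 had means of 1279 ± 89.9 on SFD and 1310.0 ± 114 on HFD among WT, and 1234 ± 45.2 on SFD and 1476 ± 55.6 on HFD among KO libraries, in FPM, with 0.26 ± 0.068 in KO (adjusted p = 0.0237) and 0.034 ± 0.068 in WT (adjusted p = 0.835). For both genes the KO HFD kidneys were all above the KO SFD kidneys, while the WT diets overlapped. The KO calls were each lost in 6 of 10 fits that left out 1 library, for Pcx without a1, a4, a5, a7, a8 or a9 (adjusted p up to 0.0833) and for Fbp1 without a1, a2, a5, a7, a9 or a10 (adjusted p up to 0.072). The averaged calls rested on libraries in doubt. Without the near-identical pair Pcx was at 0.20 (adjusted p = 0.053) and Fbp1 at 0.12 (adjusted p = 0.101), and without a8, a9 and a17 Pcx was at 0.19 (adjusted p = 0.119) and Fbp1 at 0.13 (adjusted p = 0.15). Over 28 alternatives the averaged call held in 26 for Pcx and in 11 for Fbp1. Khk (chromosome 5, 30921431 to 30931248, plus strand) had means of 947 ± 238 on SFD and 903 ± 166 on HFD among WT, and 922 ± 46.2 on SFD and 1056 ± 133 on HFD among KO libraries, in FPM and an averaged log2 fold change of 0.063 (95% confidence interval -0.15 to 0.27, adjusted p = 0.721).

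**Figure D2:**
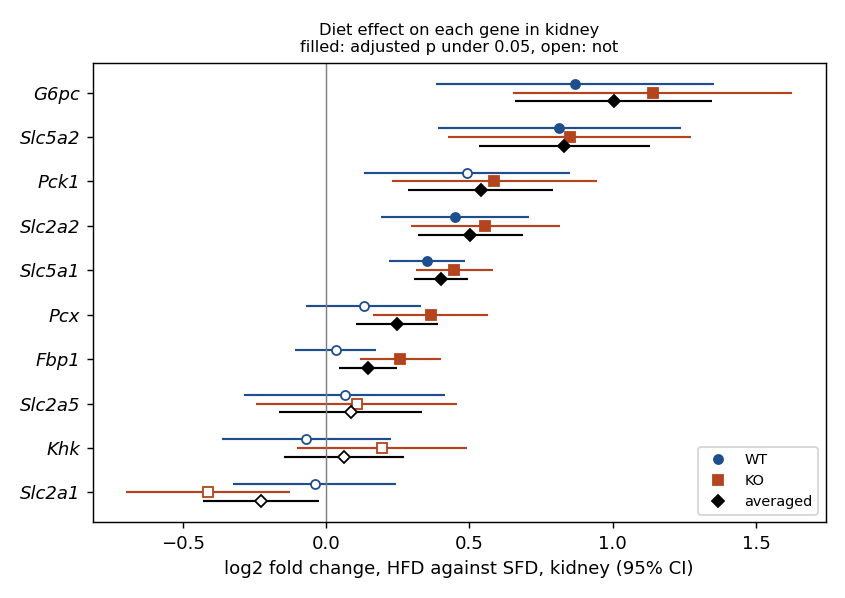
The x axis gives the log2 fold change of HFD against SFD in kidney, and each row is 1 gene with its value in WT (circles), in KO (squares) and averaged (diamonds). Lines are 95% confidence intervals, and filled symbols passed an adjusted p under 0.05. G6pc and Slc5a2 lie furthest to the right in both genotypes, Slc2a1 lies left of 0, and the intervals of WT and KO overlap for every gene.

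Counted per comparison with edgeR's quasi-likelihood test, 4 of the 10 genes passed in WT (Slc5a1, Slc5a2, Slc2a2 and G6pc), all as higher, against 6.71% of all genes and 3.03% as higher. In KO 7 of the 10 passed, all as higher, against 6.34% of all genes and 3.16% as higher. With a fold over 1.5 and over 5 FPM required as well, Slc5a2 and G6pc remained in WT (2.18% of all genes), these and Pck1 in KO (2.16%), and Slc5a2 and G6pc in the averaged comparison (2.92%). Groups did not overlap for 4 genes in WT (6.64% of all genes), for 6 in KO (7.81%) and for 3 when 10 HFD were set against 10 SFD kidneys (2.84%). Without the near-identical libraries 3 genes passed in WT, 6 in KO and 5 in the averaged comparison. Without the 3 kidneys with high immediate-early genes the counts were 4, 4 and 5. The WT count fell to 2 without a11, a13, a16 or a17, and the KO count to 4 without a1, a5, a7 or a9. In the averaged comparison Slc5a1, Slc5a2, Slc2a2, Pck1 and G6pc passed under all 28 alternatives, with log2 fold changes of 0.86 to 1.09 for G6pc and 0.73 to 0.89 for Slc5a2.

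Deletion of Egfr in Tek-cre cells came with no detectable change of the 10 genes in kidney. No gene of the 10, and none of all genes tested, passed for KO against WT under SFD (0%), under HFD (0%), averaged over diets (0%) or for the interaction of diet and genotype (0%). At an unadjusted p under 0.05, 1 of the 10 genes passed under SFD (2.67% of all genes), 1 under HFD (3.42%), 0 averaged over diets (4.82%) and 1 for the interaction (1.79%). By DESeq2, and by edgeR without the near-identical pair, 0 of the 10 passed in each of these 4 comparisons. The genes were Slc2a1 under SFD (log2 fold change 0.31, unadjusted p = 0.0372, adjusted p = 1 by edgeR's test) and Fbp1 under HFD (0.17, unadjusted p = 0.0194, adjusted p = 0.814) and for the interaction (0.22, unadjusted p = 0.0297, adjusted p = 1). Without the near-identical pair Fbp1 was at 0.22 under HFD (adjusted p = 0.491) and 0.27 for the interaction (adjusted p = 0.96). With the pair included, the averaged KO effect had a 95% confidence interval of -0.23 to 0.37 on the log2 scale for Slc5a2, -0.36 to 0.32 for G6pc and -0.16 to 0.025 for Slc5a1. The difference between the diet effects in KO and in WT was 0.035 (interval -0.56 to 0.63) for Slc5a2 and 0.27 (interval -0.41 to 0.95) for G6pc. That more genes passed in KO than in WT is therefore not a shown difference between genotypes.

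Levels of different genes were compared only per kilobase of exon (FPM divided by the summed exon length, mean ± SD over the 20 kidneys). Pck1 (874 ± 229.5) and Fbp1 (778 ± 70.3) were the most abundant, and the ranges of both overlapped with that of Khk (533 ± 88.9). Then came G6pc (242 ± 98.8), Pcx (193 ± 26.1) and Slc5a2 (176 ± 57.6), whose ranges overlapped. Far below lay Slc2a2 (35.04 ± 7.51), Slc2a5 (27.1 ± 5.02), Slc5a1 (19.8 ± 3.04) and Slc2a1 (12.2 ± 2.44), and neighbours in this order again overlapped. The SGLT2 transcript was thus the most abundant of the 5 carriers in every kidney on this scale.

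The other genes of the pathway gave a mixed picture for HFD averaged over genotypes (8.7% of all genes passed as lower). Of 16 further hexose and related carriers tested, 4 passed as higher and 2 as lower, with a median of 0.027. Without the near-identical pair 2 passed as higher and 2 as lower, and without the 3 kidneys with high immediate-early genes 3 and 1. Among them Slc5a10, a fructose and mannose carrier of the kidney, rose from 182 ± 44.2 to 260.0 ± 44.6 FPM in WT and from 167 ± 24.7 to 294 ± 21.96 FPM in KO (log2 fold change 0.66, adjusted p = 6.9e-05). Slc2a10 rose at a low level, 0.660 ± 0.184 to 1.11 ± 0.118 FPM in KO (0.65, adjusted p = 0.0375). Slc5a8, which carries lactate and other monocarboxylates, fell by 0.54 on the log2 scale (adjusted p = 8.6e-06) and the inositol carrier Slc2a13 by 0.49 (adjusted p = 0.0157). Slc2a10 lost its call without the pair (0.60, adjusted p = 0.0893) and Slc2a13 without the 3 kidneys (-0.34, adjusted p = 0.0759).

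Of 19 other genes of gluconeogenesis and of the steps it shares with glycolysis, 3 passed as higher and none as lower (median 0.091). Among them were the enolase Eno1 (0.31, adjusted p = 0.0132) and the mitochondrial carboxykinase Pck2 (0.29, adjusted p = 0.0468). Pck2 lost its call without the pair (0.23, adjusted p = 0.138) and without the 3 kidneys (0.33, adjusted p = 0.0735). Without the pair the list had 2 genes higher and 1 lower (median 0.033), the lower being Ldha, a lactate dehydrogenase subunit, named after its values were seen (-0.28, adjusted p = 0.00809). Pgk1 and Slc37a4, the glucose-6-phosphate carrier that works with G6pc, were at 0 in every library of both organs, as was everything listed on the X chromosome and chromosome 9, and could not be tested. Of 10 genes for steps found only in glycolysis 2 passed, both as higher (median -0.013). The pyruvate kinase Pklr, which works against gluconeogenesis, rose from 31.9 ± 3.59 to 66.9 ± 6.20 FPM in WT and from 27.3 ± 2.49 to 66.3 ± 11.6 FPM in KO (1.17 ± 0.077, adjusted p = 2.6e-09). The hexokinase-domain gene Hkdc1 rose with group means of 2.68 to 4.62 FPM (0.63, adjusted p = 0.00222).

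Of 14 genes that supply substrates for gluconeogenesis, 2 passed as higher and 1 as lower (median 0.027). Glutamate dehydrogenase (Glud1), which feeds glutamate carbon into the citrate cycle, rose from 546 ± 29.8 to 711 ± 49.7 FPM in WT and from 541 ± 15.8 to 735 ± 53.6 FPM in KO (0.41, adjusted p = 2.7e-06). Pdk1, a kinase that inactivates pyruvate dehydrogenase, rose by 0.65 on the log2 scale (adjusted p = 1.5e-05), and the gene that fell was again Slc5a8. Of 6 genes of fructose and polyol handling 3 passed as higher and 1 as lower (median 0.21). Akr1b8 (1.23, adjusted p = 1.2e-05) and the triokinase Tkfc (0.25, adjusted p = 0.00284) rose, and the aldose reductase Akr1b3 fell from 128 ± 43.5 to 60.5 ± 21.2 FPM in WT and from 96.04 ± 25.5 to 70.2 ± 15.8 FPM in KO (-0.76, adjusted p = 0.00466).

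Among 21 regulators known to act on these genes 1 passed as higher and 5 as lower (median -0.033). Cebpb (-1.10, adjusted p = 0.0148) and Klf15 (-0.38, adjusted p = 0.00498) fell, and Cebpa rose (0.50, adjusted p = 0.00158). Without the 3 kidneys with high immediate-early genes Cebpb did not pass (-0.40, adjusted p = 0.0547).

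The whole organ was sequenced, so fewer cells of a type and less RNA per cell cannot be told apart. Markers of the proximal tubule moved with the 10 genes, in both directions. Of 10 markers of the whole proximal tubule 2 passed as higher and 2 as lower, and their summed level was 12307 to 15649 FPM on SFD and 13238 to 14976 FPM on HFD. Gatm (1.01, adjusted p = 2.9e-05) and Fabp1 (2.63, adjusted p = 0.0011, with group means under 5 FPM) rose, and Ggt1 (-0.46, adjusted p = 0.00264) and the water channel Aqp1 (-0.39, adjusted p = 6.0e-05) fell. Of 6 markers of its early segments, where SGLT2 and GLUT2 reside, the amino acid carriers Slc7a8 (0.95, adjusted p = 6.0e-05) and Slc7a7 (0.62, adjusted p = 2.8e-04) rose, and the organic anion carrier Slc22a6 (-0.44, adjusted p = 7.6e-05) and the phosphate and urate carrier Slc17a3 (-0.26, adjusted p = 0.00171) fell. Their summed level was 2279 to 3131 FPM on SFD and 2293 to 2753 FPM on HFD. The median log2 fold change of these 6 markers was 0.35. It was 0.33 without the near-identical pair and 0.20 without the 3 kidneys with high immediate-early genes.

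Markers of the straight segment, where SGLT1 resides, all went down. Of 7 listed, Slc22a13 was at 0 in every library, and all 6 others passed as lower, with a median log2 fold change of -0.68. Their summed level was 7536 to 9575 FPM on SFD and 5364 to 7008 FPM on HFD, without overlap. The organic anion carrier Slc22a7 fell from 269 ± 101 to 80.5 ± 38.8 FPM in WT and from 272 ± 82.7 to 88.7 ± 48.1 FPM in KO (-1.68, adjusted p = 3.7e-04). The sterol hydroxylase Cyp7b1 (-0.94, adjusted p = 1.9e-04), the amino acid carrier Slc7a13 (-0.69, adjusted p = 3.4e-05) and the lipid flippase Atp11a (-0.66, adjusted p = 1.8e-05) fell as well. All 6 also passed as lower without the near-identical pair and without the 3 kidneys with high immediate-early genes. Slc5a1 moved in the opposite direction to these neighbours of its segment. The part of segment make-up in the changes of the 10 genes was not tested.

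**Figure D3:**
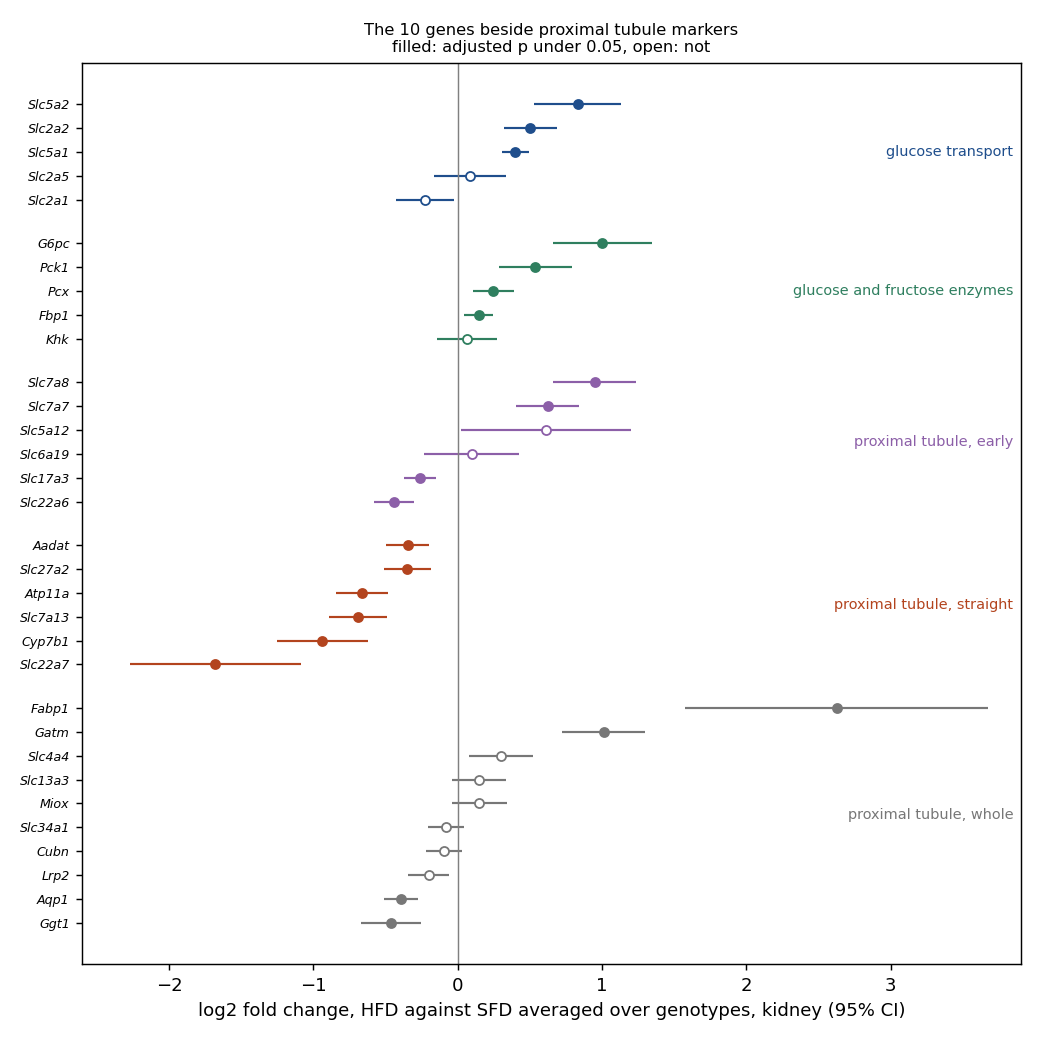
The x axis gives the log2 fold change of HFD against SFD averaged over genotypes in kidney, with 95% confidence intervals, and filled points passed an adjusted p under 0.05. Rows are the 10 genes and the markers of the early, the straight and the whole proximal tubule that were tested. All 6 straight segment markers lie left of 0, while 7 of the 10 genes lie right of 0 and passed.

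Since several of the 10 genes are also read in liver, hepatocyte markers were looked at in the same kidneys. Of 7 listed, Tat was at 0 everywhere, and of 6 tested 2 passed as higher with HFD. Transthyretin (Ttr) rose from 145 ± 34.4 to 506 ± 195 FPM in WT and from 134 ± 11.7 to 624 ± 136 FPM in KO (2.01, adjusted p = 1.5e-08), and Fgb rose with group means under 6 FPM (2.20, adjusted p = 0.00104). Albumin (Alb), which defines the cell type, was at 8.78 ± 2.28 on SFD and 13.97 ± 3.28 on HFD among WT, and 21.4 ± 27.4 on SFD and 14.4 ± 2.67 on HFD among KO libraries, in FPM, a difference of 0.046 on the log2 scale that did not pass (adjusted p = 0.951). The summed level of the list was 196 to 348 FPM on SFD and 518 to 988 FPM on HFD, where Ttr made up most of it. The part of liver-type RNA in the changes was not tested. Of 8 immediate-early genes 6 passed as lower with HFD (median -2.59). Without the near-identical pair 0 passed, and without a8, a9 and a17, 0 passed as lower and 2 as higher (median 0.39). None of the 8 was at 0 in all kidneys, and the list had a summed level of 73.7 to 2107 FPM on SFD and 96.2 to 161 FPM on HFD. Without the 3 kidneys in which these were high, Slc5a2, Slc5a1, Slc2a2, Pck1 and G6pc still passed (averaged log2 fold changes of 0.74, 0.41, 0.46, 0.63 and 0.86, largest adjusted p = 0.00446). Of 11 clock genes 0 passed, though all 11 had a negative value (median -0.39), and with the first principal component of these genes as a covariate the counts of the 10 genes passing were 4 in WT, 7 in KO and 7 averaged.

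The genes whose levels followed each of the 7 most closely over the kidneys, with the near-identical pair averaged to give 19 points that share 2 diets, are given as a description with Pearson's r of log2 levels. For Slc5a2 they were Ugt2b34 (0.976), Acss1 (0.965), Myrf (0.963), and for Slc2a2 Acss1 (0.951), Slc7a8 (0.950), Myrf (0.948). For G6pc they were Myrf (0.926), Agmo (0.923), Gm4756 (0.918), for Pck1 Crybg2 (0.897), Fgf10 (0.830), 2900005J15Rik (0.822) and for Slc5a1 Pklr (0.921), Tcf24 (0.904), Gulo (0.896). For Fbp1 they were Sqor (0.893), As3mt (0.883), Ctsl (0.876), and for Pcx Tcn2 (0.922), Myo7b (0.893), Plbd2 (0.874). Acss1, the mitochondrial acetyl-CoA synthetase, and Myrf stood in the lists of both Slc5a2 and Slc2a2.

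The aorta, sequenced from the same study groups, served as the contrast. Of the 10 genes 6 were at the edge of detection there. Over all 20 aortas Fbp1 had 7 counts in total (0 to 2 per library), Slc5a1 28 (0 to 5), Slc2a2 45 (0 to 10), Slc2a5 55 (0 to 8), Slc5a2 68 (1 to 7) and G6pc 78 (0 to 9), and none was tested. Lrp2, the defining endocytic receptor of the proximal tubule, had group means of 0 to 0.0201 FPM in aorta. Per kilobase of exon Slc2a1 was at 15.96 ± 2.48 in aorta beside 12.2 ± 2.44 in kidney, Khk at 13.2 ± 2.94 beside 533 ± 88.9, Pck1 at 3.38 ± 2.71 beside 874 ± 229.5 and Pcx at 2.99 ± 1.08 beside 193 ± 26.1. The tables of both organs were scaled separately, so these levels stand side by side without a test.

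Pcx fell with HFD in aorta. It read 20.99, 21.7, 23.00, 23.5 and 16.9 FPM in WT SFD and 11.9, 10.6, 14.2, 11.2 and 10.9 FPM in WT HFD. In KO SFD it read 9.71, 20.8, 11.2, 15.6 and 13.2 FPM and in KO HFD 9.40, 9.45, 7.70, 10.6 and 11.2 FPM. In WT every SFD aorta was above every HFD aorta (0.41% of all genes did not overlap), while the KO diets overlapped. The averaged log2 fold change was -0.70 ± 0.12 (adjusted p = 0.0356), and 1 of the 4 tested genes passed beside 0.0529% of all 15122 genes. In WT it was -0.85 (adjusted p = 0.238; 0.0052 by DESeq2) and in KO -0.55 (adjusted p = 0.987). The averaged call was lost without the near-identical libraries (-0.61, adjusted p = 0.123) and in 17 of 20 fits that left out 1 library, where the log2 fold change ran from -0.75 to -0.60.

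White adipocyte markers were looked at beside Pcx in aorta. Of 8 tested 1, Cfd, passed as lower with HFD (-2.44, adjusted p = 0.0356), and 0 passed without the near-identical libraries (Cfd -2.20, adjusted p = 0.123). None of the 8 was at 0 in all libraries, and Adipoq, which defines the cell type, was at 22.5 ± 12.2 on SFD and 7.66 ± 4.49 on HFD among WT, and 7.78 ± 4.15 on SFD and 4.31 ± 1.39 on HFD among KO libraries, in FPM. Their summed level was 245 to 824 FPM on SFD and 92.3 to 451 FPM on HFD among WT aortas. Among KO aortas it was 140.0 to 412 FPM on SFD and 127 to 243 FPM on HFD. With the mean level of these markers as a covariate the Pcx value was -0.53 (adjusted p = 0.44).

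The other 3 genes did not pass with HFD averaged over genotypes. Pck1 read 10.9, 37.7, 22.4, 13.7 and 11.5 FPM in WT SFD and 15.7, 8.19, 25.8, 17.6 and 1.87 FPM in WT HFD. In KO SFD it read 2.18, 10.7, 4.55, 18.4 and 2.02 FPM and in KO HFD 4.97, 9.01, 6.87, 3.25 and 4.49 FPM, and the groups overlapped. Its log2 fold change with HFD averaged over genotypes was -0.44 ± 0.43 (adjusted p = 0.999 by edgeR's test). For KO against WT averaged over diets it was -1.31 ± 0.43 (adjusted p = 0.424). Over 27 alternatives this genotype value of Pck1 ran from -1.62 to -0.33 and passed in 0. With the adipocyte markers as covariate the diet value of Pck1 changed sign, to 0.56 (adjusted p = 0.895). Slc2a1 was at 0.13 ± 0.086 and Khk at -0.079 ± 0.15 with HFD. In KO against WT 0 of the 4 tested genes passed by edgeR's test or by DESeq2, and 3 (Pck1, Pcx and Slc2a1) had an unadjusted p under 0.05 averaged over diets, beside 8.78% of all genes. Pcx was at -0.44 (adjusted p = 0.352) and passed once the near-identical pair was left out (-0.53, adjusted p = 0.0269) or its KO member R-12 alone (-0.53, adjusted p = 0.0217). Over 27 alternatives this Pcx value ran from -0.53 to -0.31 and passed only in these 2. Of all genes tested in aorta 0.0132% passed for HFD in WT, 0% for HFD in KO, 0% for KO under SFD, 0% for KO under HFD, 0.0198% for KO averaged over diets and 0% for the interaction.

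**Figure D4:**
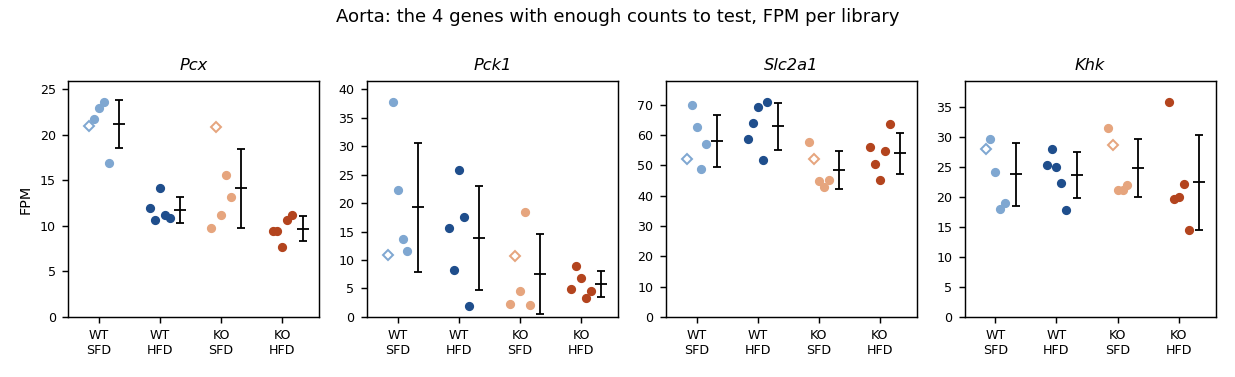
Each panel plots 1 of the 4 genes that could be tested in aorta, with FPM on the y axis (linear, from 0) and the 4 groups on the x axis. Points are single libraries, open diamonds the near-identical pair R-1 and R-12, and bars the mean ± SD (n = 5). Pcx is lower in every WT HFD aorta than in any WT SFD aorta, and the open diamond in KO SFD is the highest Pcx point of its group.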

How the data were processed

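RNA-seq of poly(A) RNA from kidney and aorta (20 libraries each) was used as deposited, as raw counts per gene, 1 table per organ. The authors mapped paired-end reads to mm10 and counted them with featureCounts; the processing notes name HISAT2 2.1.0 and the study's methods another mapper, and the use of strand and of multi-mapped reads is not given in the sources used here. Counts were analysed with edgeR 4.0.16 in R 4.3.3 (TMM, filterByExpr by group, robust quasi-likelihood test, 1 fit of 20 libraries per organ, Benjamini-Hochberg adjustment over all genes tested), with DESeq2 1.42.0 as an alternative. A gene was called at an adjusted p under 0.05. Levels are FPM. Groups came from the labels. The script was tested on simulated counts. Alternatives were other size factors, other filters on low counts, a fit without robust estimation, a fit of the compared groups only, leaving out each library, the near-identical pair or the 3 kidneys (known from earlier results), and covariates (first principal component of clock genes in kidney, mean of adipocyte markers in aorta). Leaving these libraries out of the list counts was chosen after seeing the data.

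All 10 genes were named, as were list genes that passed in kidney (up to the 4 with the largest absolute log2 fold change per list), defining markers, and the 3 genes most correlated with each of the 7 genes called. Some list genes that passed are counted but not reported here by name. The genes and lists were chosen with earlier results of these data known. Gene positions are from GENCODE M21 (GRCm38). Both tables hold only zeros for chromosomes 9, X, Y and MT and part of chromosome 8, so genes there are not reported here.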

Additional observations from a re-analysis of the deposited data

Results flagged for a closer look

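Of 56 groups of 5 libraries screened for a library far from the others (the 10 genes in kidney and the 4 tested in aorta), 1 was marked, where chance marks about 1 in 20. It was Slc2a1 in KO SFD kidney, where library a9 read 70.95 FPM and the gap to the next library took 0.762 of the range of the group, above the critical value of 0.71. The same kidney had the lowest level of Slc5a2 (156 FPM), Slc2a2 (114 FPM) and G6pc (157 FPM) of all 20 and was 1 of the 3 with high immediate-early genes. Without a9 Slc2a1 in KO was at -0.26 with HFD (adjusted p = 0.264).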

How the results depend on the processing

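The counts of genes passing in kidney with HFD were within 1.5 times those reported under all alternatives that left out no single library, except 4 in KO without the 3 kidneys with high immediate-early genes. Leaving out 1 library gave 2 to 4 genes in WT, 4 to 6 in KO and 6 to 7 averaged. In aorta the averaged count of 1 became 0 with no filter on low counts, without the near-identical libraries and with the adipocyte markers as covariate, and 0 to 1 when 1 library was left out. The WT count there was 1 by DESeq2, and the count for KO averaged over diets was 1 without the near-identical libraries and 0 to 1 when 1 library was left out. For the 10 genes, signs turned only among values that had not passed. With HFD in WT kidney, Slc2a1 was at 0.0016 without the near-identical libraries, 0.066 without the 3 kidneys and -0.10 to 0.066 over fits without 1 library, and Fbp1 at -0.017, -0.0017 and -0.017 to 0.074. Without 1 library Slc2a5 ran from -0.041 to 0.19 and Khk from -0.18 to 0.10 there. Averaged over genotypes Khk was at -0.0084 without the near-identical libraries. In aorta, with the adipocyte markers as covariate, Pck1 was at 0.56 and Khk at 0.050 with HFD. For KO against WT averaged over diets Khk was at 0.10 with this covariate and at -0.12 to 0.055 without 1 library. The causes were not tested. No paired analysis was possible because every library has a number of its own within its organ, shared by no other group. The 6 genes with 0 to 10 counts per library in aorta were too low to test.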

Other observations

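Other parts of the nephron also differed with HFD averaged over genotypes. Of 11 markers of other nephron segments 2 passed as higher and 1 as lower (median log2 fold change -0.090), against 3 and 2 without the near-identical libraries. The distal convoluted tubule genes Pvalb (22.3 ± 12.5 to 53.5 ± 9.69 FPM in WT, 22.01 ± 5.88 to 68.3 ± 9.10 FPM in KO, SD, n = 5; log2 fold change 1.45, adjusted p = 2.2e-05 by edgeR) and Slc12a3, the thiazide-sensitive cotransporter (0.43, adjusted p = 0.033), rose, the latter without passing once the 3 kidneys with high immediate-early genes were left out (0.44, adjusted p = 0.0563). Slc12a1, the loop-diuretic-sensitive cotransporter of the thick ascending limb, fell (-0.41, adjusted p = 0.0133). Podocyte (5 tested), endothelium (7), red blood cell (4) and smooth muscle (3) lists had 0 genes passing for this comparison, with medians of 0.21, 0.18, 0.070 and -0.013. Leptin (Lep) was the 1 of 8 white adipocyte markers that passed in kidney (4.63, adjusted p = 0.00111), with means of 0.907 ± 1.22 on SFD and 7.23 ± 5.31 FPM on HFD in WT, and 0.198 ± 0.307 on SFD and 16.2 ± 19.03 FPM on HFD in KO.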
